A study of Mus musculus with 24 samples.

Results

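The 10 genes described here regulate how many mitochondria a cell makes and whether those mitochondria fuse or divide: Ppargc1a, Esrra, Nrf1, Tfam, Mfn1, Mfn2, Opa1, Dnm1l, Sirt1 and Sirt3. Their probes were found on the arrays by the RefSeq transcript that each probe is annotated with, which gave 19 probes of these 10 genes among 56605 probes in all. Of the 19, 18 were well above background on at least 3 arrays and were tested, among 43914 such probes. The probe left out, Nrf1 A_55_P2481764, was well above background on 0 of 24 arrays. The genes are a list by function, and no threshold on a measured value decided which are in it.

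The samples were hippocampi of 24 male mice, 1 Agilent one-colour array each, in 6 groups. The line is B6.Cg-Tg(APPswe,PSEN1dE9)85Dbo/J in every label, and its carriers express a mutant human amyloid precursor protein and a mutant presenilin and form amyloid plaques. APP-PS1_UA (n = 4) carried both transgenes and received urolithin A, a gut bacterial product of dietary ellagitannins that is known to induce removal of damaged mitochondria by autophagy. APP-PS1_CTR (n = 3) carried the transgenes and received water, and WT_CTR (n = 4) lacked the transgenes and received water. APP-PS1_UA-WASHOUT (n = 5), APP-PS1_WASHOUT (n = 3) and WT_WASHOUT (n = 5) were the matching groups kept for 1 month after gavage had stopped. Gavage ran from 2 to 7 months of age. The protocol for treatment puts the daily dose at 200 mg/kg, while the design text has 20 mg/kg. The age label is 8 months, or 9 months for the washout groups, whereas the design text has tissue taken at 7 months and 1 month later.

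Mitochondrial biogenesis is driven from the nucleus. The coactivator PGC-1α (Ppargc1a) works with the transcription factors ERRα (Esrra) and NRF1 to switch on nuclear genes for respiration and for TFAM, which packs mitochondrial DNA and starts its transcription. Mitofusins (Mfn1, Mfn2) join outer membranes and OPA1 joins inner membranes, while DRP1, encoded by Dnm1l, constricts and divides mitochondria; the NAD-dependent deacetylase SIRT1 activates PGC-1α, and SIRT3 deacetylates enzymes inside the mitochondrion. Neurons rely on this machinery to place mitochondria along axons and at synapses.

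Promoter stretches are shown because sites for the nuclear respiratory factors NRF1 and GABP are a known feature of genes for mitochondrial proteins. Sequences are RefSeq's, build GRCm38.p6, from 250 bases before to 50 bases after a transcription start, and all 10 genes had at least 1 such window (15 windows). The letters searched on both strands were CCGGAAG for GABP, AAGGTCA for ERR, TGACGTCA for CREB, and for NRF1 the palindrome that stands in capitals in the Opa1 line. Capitals mark a match, and CTTCCGG is the GABP motif read on the other strand. The motifs do not overlap one another in these lines.
Tfam, chr10:71238065-71238111, minus strand: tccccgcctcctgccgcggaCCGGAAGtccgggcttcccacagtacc
Dnm1l, chr16:16358547-16358573, minus strand: ctgtcgcttcCTTCCGGccgctgagga
Mfn1, chr3:32529418-32529464, plus strand: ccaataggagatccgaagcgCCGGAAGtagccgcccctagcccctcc
Sirt3, chr7:140882368-140882414, minus strand: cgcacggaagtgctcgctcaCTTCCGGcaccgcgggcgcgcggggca
Opa1, chr16:29579255-29579304, plus strand: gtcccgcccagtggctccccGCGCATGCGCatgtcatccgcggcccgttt

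The GABP letters were in 4 of the 15 windows, those of Tfam, Dnm1l, Mfn1 and Sirt3, and in 8.858% of all 32851 windows of the same length. They began 47 bases before the start in Tfam and 13 bases after it in Dnm1l. The NRF1 palindrome was in 1 window, that of Opa1, and in 0.971% of all windows. AAGGTCA (4.718% of all windows) and TGACGTCA (1.79%) were in none of the 15. The Sirt1 window held none of the 4 motifs. These are matches of letters, and whether a factor binds there was not measured.

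All levels below are log2 of the processed signal minus the array's 75th percentile. A change is one group mean minus another, and its standard error (SE) comes from a limma model fitted to all 43914 probes. A probe is said to be called where its p, adjusted by Benjamini-Hochberg across these probes, was under 0.05. Where a gene has several probes, the one with the highest mean is its lead probe. The labels give 1 animal per array, so p-values rest on variation among animals within groups. In whole hippocampus, fewer cells of a type and less RNA per cell cannot be told apart.

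The 24 arrays lay on 3 slides of 8. Slide 1 held APP-PS1_UA replicate 1, APP-PS1_CTR and WT_CTR, slide 2 held APP-PS1_UA replicates 2 to 4 and WT_WASHOUT, and slide 3 held APP-PS1_UA-WASHOUT and APP-PS1_WASHOUT. On slide 1, all APP-PS1_CTR arrays were in row 2 and all WT_CTR arrays in row 1, so within that slide row and group cannot be told apart. In a fit with slide and array row as blocks, the row effect therefore comes from WT_WASHOUT and APP-PS1_UA-WASHOUT. In each of these, only replicate 1 was in row 1. The first principal component took 45.4% of the variance and separated slide 3 from the rest. Arrays had 63.7% to 76.9% of spots well above background and 0 saturated spots, with a 75th percentile of signal from 1285 to 2292. The 8 excitatory neuron markers of the hippocampus were well above background on every array. The mean log2 level of 11 choroid plexus markers ranged widely over arrays, from -2.71 to 3.62.

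At the end of treatment, none of the 10 regulators was called changed by the transgenes or by urolithin A. In APP-PS1_CTR against WT_CTR, 0 of 18 member probes were called, where 0.153% of all probes were (67 probes), and the members' median change was -0.00 against -0.02 for all probes. In APP-PS1_UA against APP-PS1_CTR, 0 of 18 were called, where 0% of all probes were, although 3493 probes had an unadjusted p under 0.05. The members' median change there was 0.05, against -0.01 for all probes, and their smallest adjusted p was 0.644 by limma. In APP-PS1_UA against WT_CTR, again 0 of 18 were called (0.0433% of all probes). The 95% intervals of the lead probes are for a difference of group means. These intervals rest on the variation among animals, in a model without a slide term. They reached no further than 0.653-fold and 1.42-fold in APP-PS1_CTR against WT_CTR, and 0.789-fold and 1.61-fold in APP-PS1_UA against APP-PS1_CTR. APP-PS1_UA replicates 2 to 4 were on another slide than APP-PS1_CTR, and the intervals do not cover a difference between slides.

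After washout, urolithin A treated and untreated transgenic mice also did not differ by the test in any regulator. In APP-PS1_UA-WASHOUT against APP-PS1_WASHOUT, 0 of 18 member probes were called (0.0524% of all probes), the median change was -0.02 for both the members and all probes, and the lead probes' intervals lay between 0.742-fold and 1.38-fold. All APP-PS1_WASHOUT arrays were in row 1 of slide 3, with 73.8% to 76.9% of spots well above background. APP-PS1_UA-WASHOUT replicates 2 to 5 were in row 2, with 63.7% to 69.9%. Treatment and array row thus largely coincided, and the intervals do not cover a difference between rows. The difference between the urolithin A effects at the 2 stages was tested as an interaction, and 0 of 18 probes were called (0% of all probes). Its smallest adjusted p among the members was 0.408, for Nrf1 A_66_P102204.

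Against WT_WASHOUT, in contrast, some regulators were called lower in transgenic mice after washout: Tfam in both transgenic groups, and Sirt1 and Dnm1l in APP-PS1_UA-WASHOUT. The change of the lead Sirt1 probe in APP-PS1_WASHOUT was also downward and just missed the threshold. In APP-PS1_WASHOUT against WT_WASHOUT, 2 of 18 member probes were called, both lower and both of Tfam, where 25.7% of all probes were called and 7.21% were called lower. In APP-PS1_UA-WASHOUT against WT_WASHOUT, 4 of 18 were called, all lower (both Tfam probes, the lead probe of Sirt1, and Dnm1l), where 34.9% of all probes were called and 13% were called lower. Counting both directions, the members' shares of calls (2 and 4 of 18) were below those of all probes, while their shares of lower calls were above them. Nothing particular to these genes is read from these counts. Both comparisons share the WT_WASHOUT arrays, and both lie wholly between slide 3 and slide 2, so slide and group cannot be told apart in them. WT_WASHOUT against WT_CTR, the comparison of non-transgenic animals on slides 2 and 1, called 0 of 18 member probes (0.0114% of all probes).

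**Figure D1:**
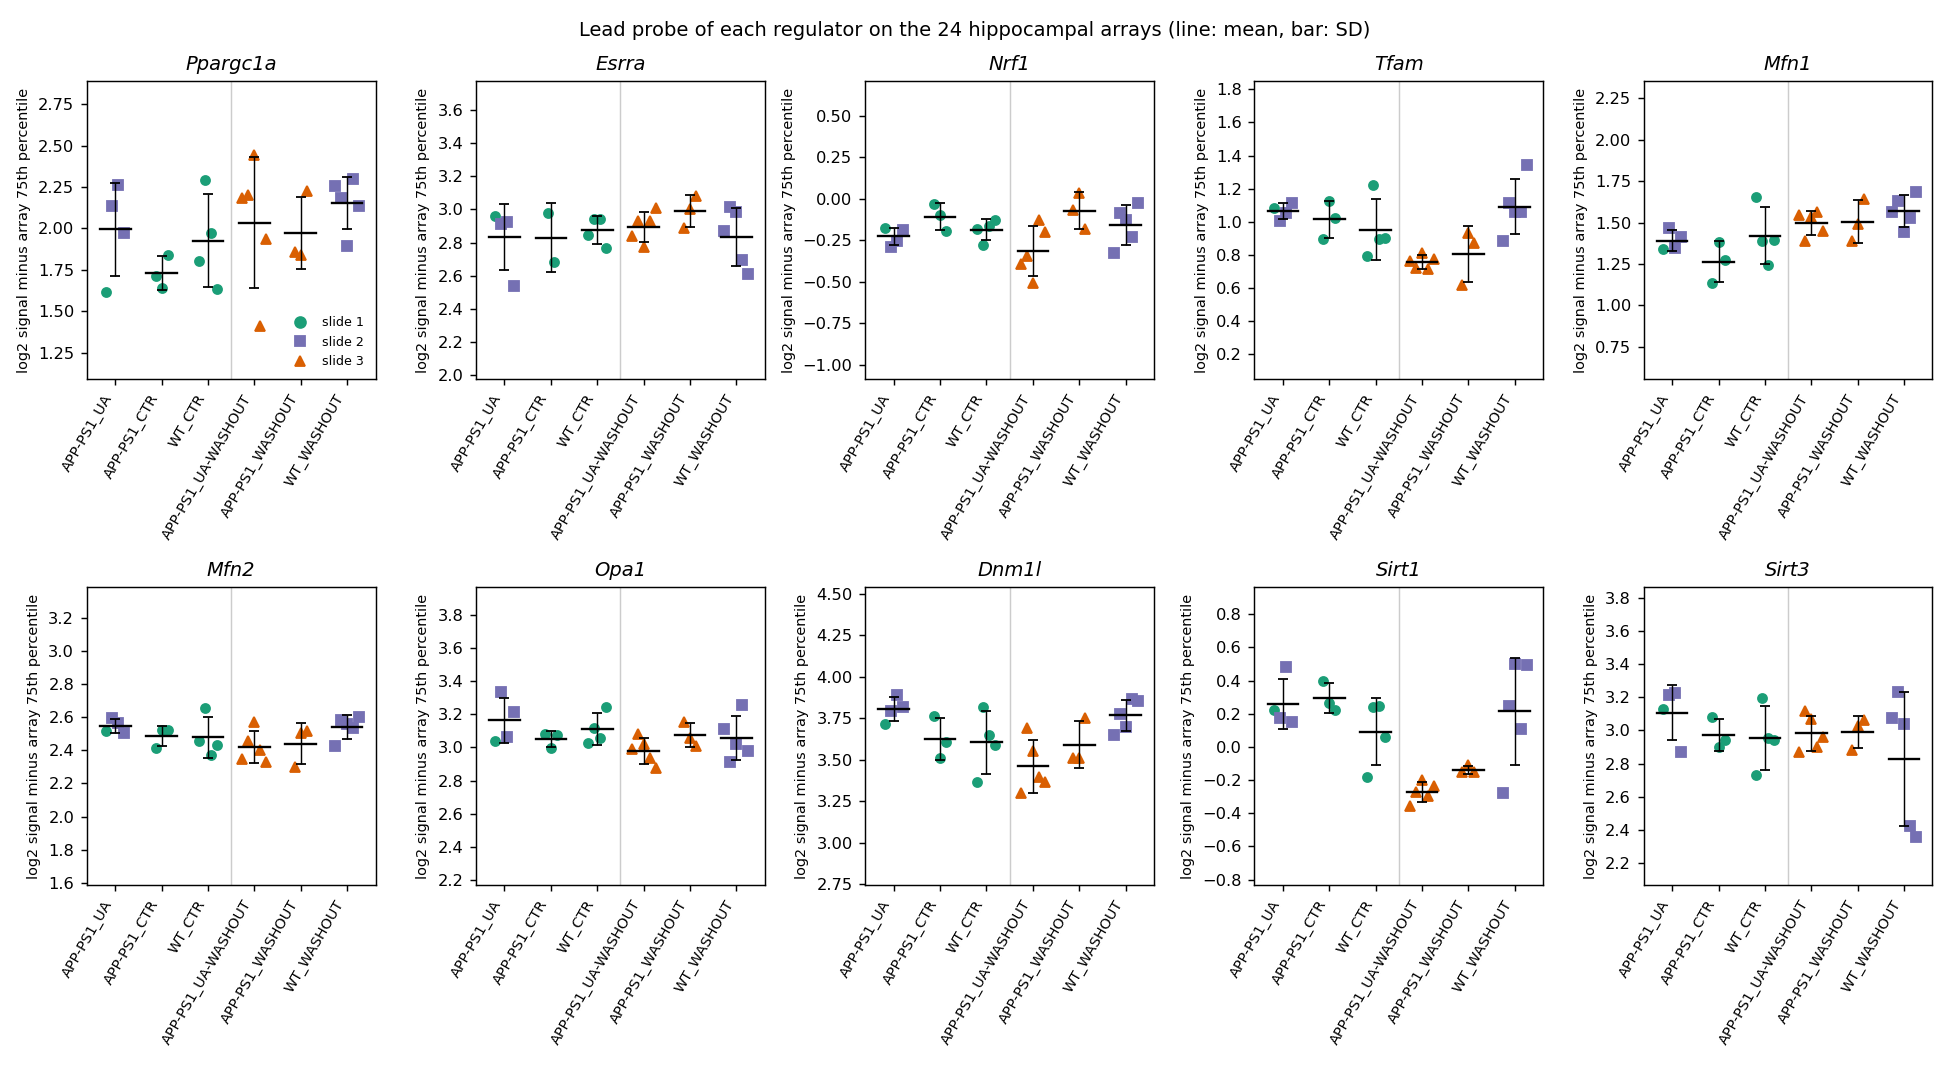
Log2 signal minus the array's 75th percentile of the lead probe of each of the 10 genes, one point per array, by group, with the mean as a line, the SD as a bar and the slide as colour and shape. Every panel spans the same range of log2 values. The slide 3 arrays sit low for Tfam (0.62 to 0.93) and Sirt1 (-0.36 to -0.11), while 2 slide 2 arrays sit lowest for Sirt3 (2.42 and 2.36).

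The biogenesis coactivator Ppargc1a varied more between animals than between groups. Its lead probe A_51_P279038 read 1.61, 2.13, 2.26 and 1.97 in APP-PS1_UA, 1.72, 1.64 and 1.84 in APP-PS1_CTR, and 1.80, 2.29, 1.98 and 1.64 in WT_CTR. In APP-PS1_UA, 3 of 4 animals lay above every APP-PS1_CTR animal and the other lay below them all. That low animal was on slide 1 with the APP-PS1_CTR arrays, and the 3 high ones were on slide 2. The change was 0.26 (SE 0.20, 1.2-fold, interval 0.898 to 1.61, adjusted p = 0.738 by limma), and the second probe A_55_P2745394 gave 0.30 (adjusted p = 0.695). With slide as a block, which leaves the 1 array on slide 1 as the APP-PS1_UA side of the comparison, these became -0.12 and 0.02, so the lead probe turned direction.

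In the washout groups Ppargc1a read 2.18, 2.20, 2.44, 1.41 and 1.94 in APP-PS1_UA-WASHOUT, 1.86, 1.84 and 2.22 in APP-PS1_WASHOUT, and 2.25, 2.19, 1.89, 2.30 and 2.13 in WT_WASHOUT. The lowest and the highest of all 24 arrays, 1.41 and 2.44, were both APP-PS1_UA-WASHOUT animals. All 3 groups overlapped. By group mean the order was WT_WASHOUT (2.15), APP-PS1_UA-WASHOUT (2.04), APP-PS1_UA (2.00), APP-PS1_WASHOUT (1.97), WT_CTR (1.93) and APP-PS1_CTR (1.73). The largest step between neighbours, 0.20, was under the SD within groups of 0.27.

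Esrra, the orphan nuclear receptor that PGC-1α coactivates, had group means that lay close together, while single arrays ran from 2.54 to 3.08. Its single probe A_55_P1954306 averaged 2.83 ± 0.20 in APP-PS1_UA (SD, n = 4), 2.83 in APP-PS1_CTR (2 values, since 1 array was set aside for an outlier flag) and 2.87 ± 0.08 in WT_CTR (n = 4). After washout it averaged 2.90 ± 0.09 in APP-PS1_UA-WASHOUT (n = 5), 2.99 ± 0.10 in APP-PS1_WASHOUT (n = 3) and 2.84 ± 0.18 in WT_WASHOUT (n = 5). All 6 group means lay within 0.16 of each other, against an SD within groups of 0.15.

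Nrf1, the nuclear respiratory factor, had 3 tested probes that did not move together. The lead probe A_55_P2000077 read -0.39, -0.34, -0.51, -0.13 and -0.20 in APP-PS1_UA-WASHOUT, against -0.07, 0.04 and -0.18 in APP-PS1_WASHOUT. In APP-PS1_UA-WASHOUT, 4 of 5 animals were below every APP-PS1_WASHOUT animal, and replicates 2 to 5 were in another array row than APP-PS1_WASHOUT. The change was -0.24 (SE 0.09, unadjusted p = 0.0147, adjusted p = 0.483 by limma), so it did not pass. The other probes gave 0.05 (A_55_P2506320, adjusted p = 0.984) and 0.19 (A_66_P102204, adjusted p = 0.803) in the same comparison. At the end of treatment the 3 probes gave -0.12, -0.23 and -0.29 for APP-PS1_UA against APP-PS1_CTR, with adjusted p-values of 0.749, 0.839 and 0.644. Against WT_WASHOUT, the lead probe of Nrf1 gave -0.15 (SE 0.08, adjusted p = 0.136) in APP-PS1_UA-WASHOUT. It was called there on other scales, at -0.27 (adjusted p = 0.014) with array medians and at -0.088 score units (adjusted p = 0.000758) in the authors' deposited scores.

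Tfam, which packs mitochondrial DNA and starts its transcription, was the regulator with calls on both of its probes. Lead probe A_51_P493720 read 0.77, 0.72, 0.81, 0.72 and 0.77 in APP-PS1_UA-WASHOUT, 0.62, 0.93 and 0.87 in APP-PS1_WASHOUT, and 0.88, 1.11, 1.06, 1.06 and 1.34 in WT_WASHOUT. All 5 APP-PS1_UA-WASHOUT animals were below every WT_WASHOUT animal, and 2 of 3 APP-PS1_WASHOUT animals were. Tfam fell by 0.33 in APP-PS1_UA-WASHOUT against WT_WASHOUT (log2, SE 0.09, 0.794-fold, adjusted p = 0.00643 by limma) and by 0.28 in APP-PS1_WASHOUT against WT_WASHOUT (SE 0.10, 0.821-fold, adjusted p = 0.0494). The second probe A_55_P2026445 fell by 0.34 (SE 0.10, adjusted p = 0.00897) and by 0.32 (SE 0.11, adjusted p = 0.0376) in these comparisons.

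The second Tfam probe showed the same arrays low. It read -0.18, -0.17, -0.15, -0.21 and -0.09 in APP-PS1_UA-WASHOUT, -0.34, -0.02 and -0.06 in APP-PS1_WASHOUT, and -0.12, 0.27, 0.25, 0.12 and 0.38 in WT_WASHOUT. WT_WASHOUT replicate 1 was low on both probes and lay within the range of the transgenic animals on this one. At the end of treatment the Tfam groups overlapped. The lead probe read 1.08, 1.0, 1.05 and 1.11 in APP-PS1_UA, 0.90, 1.12 and 1.02 in APP-PS1_CTR, and 0.80, 1.22, 0.89 and 0.90 in WT_CTR. The changes were 0.05 for APP-PS1_UA against APP-PS1_CTR (interval 0.885 to 1.21-fold, adjusted p = 0.925) and 0.06 for APP-PS1_CTR against WT_CTR (interval 0.892 to 1.22-fold, adjusted p = 0.923). With slide and array row as blocks, the Tfam change of APP-PS1_CTR against WT_CTR turned to -0.06 on the lead probe and, from 0.12, to -0.08 on the second. That row effect rests on replicate 1 of WT_WASHOUT and of APP-PS1_UA-WASHOUT.

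The Tfam signal also differed between slides. The means of lead probe A_51_P493720 were 0.99, 1.08 and 0.78 over slides 1, 2 and 3, and differences between slides made up 54.2% of its variance, against a median of 28.0% over all probes. Differences between groups made up 57.3%, against a median of 40.5%. Slide 3 held only APP-PS1_UA-WASHOUT and APP-PS1_WASHOUT, so these shares cannot tell slide and group apart. By group mean the order was WT_WASHOUT (1.09), APP-PS1_UA (1.06), APP-PS1_CTR (1.01), WT_CTR (0.95), APP-PS1_WASHOUT (0.81) and APP-PS1_UA-WASHOUT (0.76). The largest step, 0.15, lay between WT_CTR and APP-PS1_WASHOUT, which is also where slide 3 begins, and the SD within groups was 0.13. Whether the transgene difference was larger after washout than at the end of treatment was tested as an interaction. It gave -0.35 for the lead probe (adjusted p = 0.142) and -0.44 for the second (adjusted p = 0.0764), and called 0 of 18 member probes, where 13% of all probes were called.

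The Tfam call in APP-PS1_WASHOUT against WT_WASHOUT was near the threshold. Leaving out 1 array at a time, the lead probe lost its call in 6 of 8 cases and its change ran from -0.35 to -0.19; without APP-PS1_WASHOUT replicate 1, the change was -0.19 and adjusted p = 0.267. The 4 APP-PS1_UA-WASHOUT arrays in row 2 had the lowest shares of spots above background on slide 3, from 63.7% to 69.9%. Without them, the Tfam change against WT_WASHOUT was still -0.33 with adjusted p = 0.246 on the 1 array left, whose spread is assumed to be that of the other groups, and 0 of 18 member probes were called. Other scalings moved the median of all probes in this comparison, by -0.12 with array medians and by -0.15 with quantile normalization. Measured against the median of all probes, the Tfam lead probe was at -0.37 as scaled here and -0.19 with quantile normalization. With array medians it is -0.37 by construction, since that scaling shifts all probes of an array alike.

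Markers of several cell types were called in the same comparisons. Of all 43914 probes, 34.9% were called in APP-PS1_UA-WASHOUT against WT_WASHOUT (9628 higher, 5719 lower). In APP-PS1_WASHOUT against WT_WASHOUT 25.7% were called (8131 higher, 3166 lower). Nothing particular to a cell type is read from counts near these shares. The mean level of 8 microglia markers ran from 2.19 to 2.59 in APP-PS1_UA-WASHOUT, from 2.14 to 2.61 in APP-PS1_WASHOUT, and from 1.54 to 1.90 in WT_WASHOUT, with 7 of 8 markers called higher in APP-PS1_UA-WASHOUT and 6 of 8 in APP-PS1_WASHOUT, both against WT_WASHOUT. The mean of 8 excitatory neuron markers ran from 2.24 to 2.51 in APP-PS1_UA-WASHOUT, from 2.10 to 2.61 in APP-PS1_WASHOUT, and from 2.46 to 2.65 in WT_WASHOUT, with 0 of 8 called in APP-PS1_UA-WASHOUT and 1 of 8 called lower in APP-PS1_WASHOUT. These 16 markers were well above background on every array. Among the other lists, 2 of 7 measured markers of striatum, thalamus and cortex were called higher in each transgenic group, led by the dopamine receptor gene Drd2 (1.42 in APP-PS1_UA-WASHOUT and 1.69 in APP-PS1_WASHOUT). Of 8 GABAergic markers, 1 was called higher and 2 lower in each, and the interneuron factor Lhx6 was lowest (-1.08 in APP-PS1_UA-WASHOUT and -1.11 in APP-PS1_WASHOUT). Of 6 endothelial markers, 1 was called lower in each, and of 7 astrocyte markers, 1 was called higher in each. Of 7 oligodendrocyte markers, 1 was higher and 1 lower in APP-PS1_UA-WASHOUT and 1 was higher in APP-PS1_WASHOUT. None of 11 choroid plexus or 5 blood markers was called, although all 11 choroid plexus markers had a mean above WT_WASHOUT in APP-PS1_UA-WASHOUT (median 0.76) and 10 of 11 in APP-PS1_WASHOUT (median 0.34). Their part in the changes of Tfam, Sirt1 and Dnm1l was not tested.

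**Figure D2:**
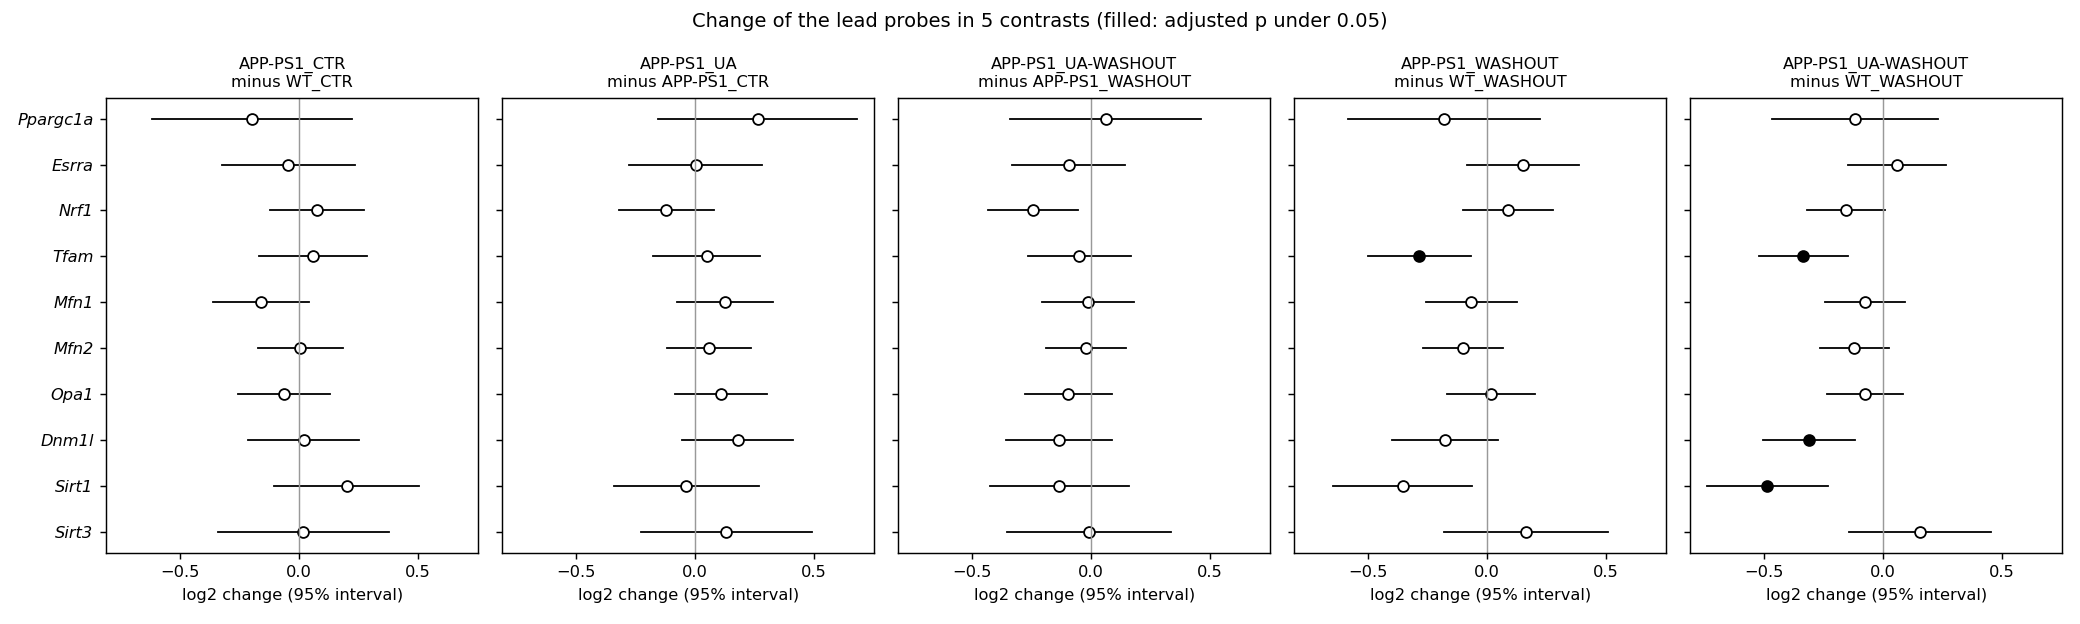
Change of the lead probe of each gene (log2, x axis) in 5 comparisons, with the 95% interval as a line and filled points where adjusted p was under 0.05. All points of the first 3 comparisons are open, Tfam is filled in the fourth, and Tfam, Dnm1l and Sirt1 are filled in the fifth, where they lie between -0.49 and -0.31.

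The outer membrane fusion genes Mfn1 and Mfn2 were not called in any comparison as scaled here, and both had a probe called against WT_WASHOUT on another scale. The lead probe of Mfn1, A_55_P2070277, averaged 1.39 ± 0.06 in APP-PS1_UA (SD, n = 4), 1.26 ± 0.12 in APP-PS1_CTR (n = 3) and 1.42 ± 0.17 in WT_CTR (n = 4). A dimmer Mfn1 probe, A_55_P2609846, separated the first groups. It read -4.28, -4.27, -3.96 and -4.27 in APP-PS1_UA, -4.49, -4.66 and -4.40 in APP-PS1_CTR, and -3.99, -4.26, -4.03 and -4.10 in WT_CTR. All 3 APP-PS1_CTR animals lay below every animal of both other groups, which were in another array row except for APP-PS1_UA replicate 1. The changes were 0.32 for APP-PS1_UA against APP-PS1_CTR (SE 0.17, adjusted p = 0.659) and -0.42 for APP-PS1_CTR against WT_CTR (SE 0.17, unadjusted p = 0.0254, adjusted p = 0.689 by limma), so neither passed. The APP-PS1_CTR change against WT_CTR shrank to -0.0044 once slide and array row were blocked. The row effect in that fit rests on replicate 1 of WT_WASHOUT and of APP-PS1_UA-WASHOUT. The lead probe of Mfn1 gave 0.13 and -0.16 in the same comparisons, the same signs with smaller sizes.

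After washout the Mfn1 lead probe averaged 1.5 ± 0.07 in APP-PS1_UA-WASHOUT (n = 5), 1.51 ± 0.13 in APP-PS1_WASHOUT (n = 3) and 1.57 ± 0.09 in WT_WASHOUT (n = 5). The dimmer Mfn1 probe gave -0.18 (SE 0.14, adjusted p = 0.36) in APP-PS1_UA-WASHOUT and -0.21 (SE 0.17, adjusted p = 0.39) in APP-PS1_WASHOUT, both against WT_WASHOUT. With quantile normalization these became -0.66 (adjusted p = 0.00203) and -0.56 (adjusted p = 0.0251), and both were also called in the authors' deposited scores (adjusted p = 0.000167 and 0.0168). The lead probe of Mfn2, A_51_P266774, had the smallest spread of the 10 lead probes, with an SD within groups of 0.09. It averaged 2.54 ± 0.04 in APP-PS1_UA, 2.49 ± 0.06 in APP-PS1_CTR and 2.48 ± 0.12 in WT_CTR, then 2.42 ± 0.10 in APP-PS1_UA-WASHOUT, 2.44 ± 0.12 in APP-PS1_WASHOUT and 2.54 ± 0.07 in WT_WASHOUT (SD, with n as above). The 6 group means lay within 0.12 of each other. For APP-PS1_UA against APP-PS1_CTR the interval of Mfn2 was 0.922 to 1.18-fold. Its second probe, A_55_P2172747, differed by 0.02 there, by -0.09 in APP-PS1_CTR against WT_CTR and by -0.03 in APP-PS1_UA-WASHOUT against APP-PS1_WASHOUT, none of which passed. Against WT_WASHOUT, the Mfn2 lead probe gave -0.12 (SE 0.07, adjusted p = 0.201) in APP-PS1_UA-WASHOUT, and -0.24 (adjusted p = 0.0403) with array medians.

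Opa1, the dynamin-like GTPase of the inner membrane, was also not called in any comparison. Its lead probe A_55_P2843001 averaged 3.16 ± 0.14 in APP-PS1_UA (n = 4), 3.05 ± 0.05 in APP-PS1_CTR (n = 3) and 3.11 ± 0.10 in WT_CTR (n = 4). It averaged 2.98 ± 0.08 in APP-PS1_UA-WASHOUT (n = 5), 3.07 ± 0.07 in APP-PS1_WASHOUT (n = 3) and 3.06 ± 0.13 in WT_WASHOUT (n = 5). The change was 0.11 for APP-PS1_UA against APP-PS1_CTR (adjusted p = 0.762) and -0.09 for APP-PS1_UA-WASHOUT against APP-PS1_WASHOUT (adjusted p = 0.863). The dimmer Opa1 probe, A_52_P547795, gave -0.16 (SE 0.26, adjusted p = 0.892) and -0.11 (SE 0.25, adjusted p = 0.960) in these comparisons.

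Dnm1l, the gene of the fission GTPase DRP1, was measured by 1 probe, A_55_P2734292. It read 3.30, 3.69, 3.55, 3.40 and 3.36 in APP-PS1_UA-WASHOUT, 3.51, 3.51 and 3.75 in APP-PS1_WASHOUT, and 3.65, 3.77, 3.70, 3.87 and 3.85 in WT_WASHOUT. In APP-PS1_UA-WASHOUT, 4 of 5 animals lay below every WT_WASHOUT animal. Dnm1l fell by 0.31 there (log2, SE 0.09, 0.807-fold, adjusted p = 0.0129 by limma). The APP-PS1_WASHOUT change against WT_WASHOUT was -0.18 (SE 0.11, adjusted p = 0.245) and did not pass, and the difference between the 2 transgenic groups was -0.13 (SE 0.11, interval 0.782 to 1.06-fold, adjusted p = 0.827). In the authors' deposited scores, which are standardized within each array, the Dnm1l difference of APP-PS1_UA-WASHOUT minus WT_WASHOUT was -0.018 score units with adjusted p = 0.565, so the call did not hold on that scale.

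At the end of treatment Dnm1l read 3.72, 3.79, 3.89 and 3.82 in APP-PS1_UA, 3.76, 3.51 and 3.61 in APP-PS1_CTR, and 3.36, 3.82, 3.65 and 3.59 in WT_CTR. In APP-PS1_UA, 3 of 4 animals were above every APP-PS1_CTR animal, and these 3 were the arrays on slide 2. The APP-PS1_UA change was 0.18 (SE 0.11, 1.13-fold, adjusted p = 0.692) against APP-PS1_CTR and 0.20 (SE 0.10, adjusted p = 0.822) against WT_CTR. With slide as a block the first became 0.09 (SE 0.17). APP-PS1_CTR against WT_CTR gave 0.02 (SE 0.11, adjusted p = 0.978), which turned to -0.15 (SE 0.16) with slide and array row as blocks. Replicate 1 of WT_WASHOUT and of APP-PS1_UA-WASHOUT set the row effect in that fit. The order of group means was APP-PS1_UA (3.81), WT_WASHOUT (3.77), APP-PS1_CTR (3.63), WT_CTR (3.61), APP-PS1_WASHOUT (3.59) and APP-PS1_UA-WASHOUT (3.46). The largest step, 0.14, was close to the SD within groups of 0.14.

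Sirt1, the nuclear deacetylase upstream of PGC-1α, had the largest called change of the set. Lead probe A_55_P2030428 read -0.36, -0.27, -0.20, -0.29 and -0.23 in APP-PS1_UA-WASHOUT, -0.15, -0.11 and -0.15 in APP-PS1_WASHOUT, and -0.28, 0.25, 0.50, 0.11 and 0.49 in WT_WASHOUT. WT_WASHOUT replicate 1, at -0.28, lay among the transgenic animals, and the other 4 lay above them all. Sirt1 fell by 0.49 in APP-PS1_UA-WASHOUT against WT_WASHOUT (log2, SE 0.12, 0.714-fold, adjusted p = 0.00367 by limma). The change in APP-PS1_WASHOUT against WT_WASHOUT was -0.35 (SE 0.14, 0.783-fold, adjusted p = 0.0704) and just missed the threshold. Without WT_WASHOUT replicate 1 it was -0.48 with adjusted p = 0.0043. It was also called with array medians, another background correction, the authors' deposited scores, slide as a random block and array weights. Quantile normalization, the filters on dim probes and a replicate block gave no call.

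All 5 APP-PS1_UA-WASHOUT animals, of which replicates 2 to 5 were in another array row, were below all 3 APP-PS1_WASHOUT animals in Sirt1. The difference was -0.13 (SE 0.14, interval 0.745 to 1.12-fold, adjusted p = 0.887) and did not pass. At the end of treatment Sirt1 read 0.23, 0.18, 0.48 and 0.15 in APP-PS1_UA, 0.40, 0.26 and 0.22 in APP-PS1_CTR, and -0.18, 0.24, 0.25 and 0.06 in WT_CTR, and all 3 groups overlapped. The change of APP-PS1_CTR against WT_CTR was 0.20 (SE 0.15, adjusted p = 0.799), and with slide and array row as blocks it turned to -0.16 (SE 0.19). The row effect there rests on replicate 1 of APP-PS1_UA-WASHOUT and replicate 1 of WT_WASHOUT, which at -0.28 was low for its group. The interaction between stages was -0.55 (SE 0.20, adjusted p = 0.0774). As for Tfam, the slide 3 mean was the lowest (0.18, 0.23 and -0.22 over slides 1, 2 and 3). Slides made up 57.2% of the variance of Sirt1 and groups made up 63.4%, which cannot be told apart here.

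The second Sirt1 probe did not show the difference. A_55_P2598462, a dim probe that was well above background on 23 arrays, gave 0.33 (SE 0.25, adjusted p = 0.347) in APP-PS1_UA-WASHOUT against WT_WASHOUT and 0.07 (SE 0.29, adjusted p = 0.894) in APP-PS1_WASHOUT against WT_WASHOUT. In APP-PS1_UA-WASHOUT this probe read -5.14, -4.79, -5.62, -4.94 and -3.55, and the last was the highest of all 24 arrays. In WT_WASHOUT it ran from -5.27 to -4.89. Its correlation with the lead probe over 24 arrays, after each slide's mean was subtracted, was 0.08.

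Sirt3, the mitochondrial deacetylase, was not called in any comparison. Its probe A_55_P2075140 averaged 3.11 ± 0.17 in APP-PS1_UA (n = 4), 2.97 ± 0.10 in APP-PS1_CTR (n = 3) and 2.96 ± 0.19 in WT_CTR (n = 4). It averaged 2.98 ± 0.11 in APP-PS1_UA-WASHOUT (n = 5), 2.99 ± 0.10 in APP-PS1_WASHOUT (n = 3) and 2.83 ± 0.40 in WT_WASHOUT (n = 5). The wide WT_WASHOUT spread came from 2 animals at 2.42 and 2.36, against 3.04 to 3.23 in the other 3. Slides made up 1.5% of the variance of Sirt3, the lowest share of the 18 probes.

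The order of groups was loose for the whole set. Of the 50 steps between neighbouring group means of the 10 lead probes, 4 were larger than the SD within groups of that probe, 1 each for Tfam, Mfn1, Dnm1l and Sirt1. Among the 10 lead probes, 5 had a highest and a lowest group more than 2 SD apart.

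Probes of the same gene agreed for Ppargc1a and Tfam and not for the others. With each slide's mean subtracted, the correlation of both probes over 24 arrays was 0.94 for Ppargc1a and 0.89 for Tfam. It was -0.08 for Mfn1, 0.09 for Mfn2 and -0.06 for Opa1, and between -0.11 and 0.03 for the 3 pairs of Nrf1 probes. The Nrf1, Mfn2 and Opa1 probes are annotated to different RefSeq transcripts of their gene, and the Mfn1 and Sirt1 probes to the same one. What each probe detects was not tested. These correlations share arrays and scaling and are descriptions only.

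**Figure D3:**
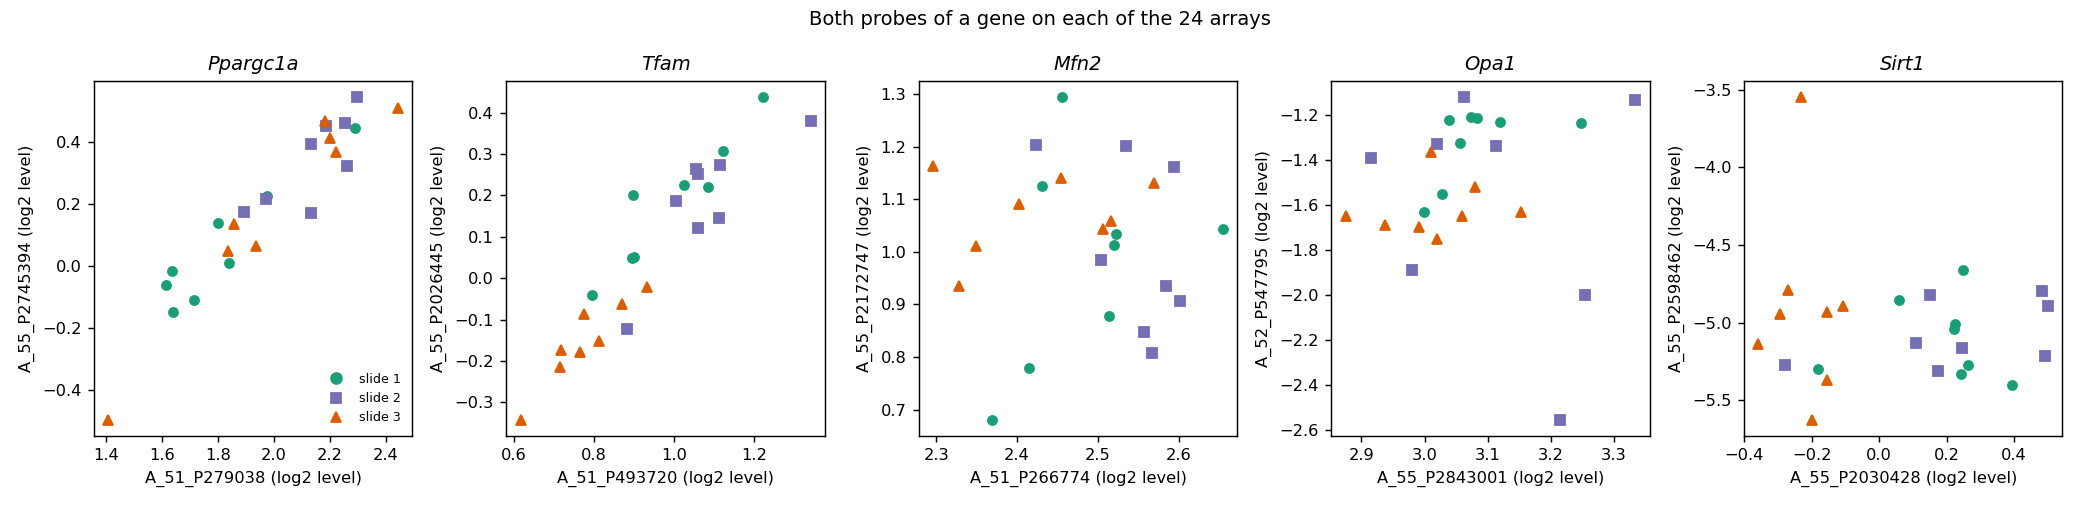
Log2 level of both probes of 5 genes, one point per array, the lead probe on the x axis and the second on the y axis, with the slide as colour and shape. Ppargc1a and Tfam form a line (slide-centred r of 0.94 and 0.89), with slide 3 at the low end for Tfam, while Mfn2, Opa1 and Sirt1 show no line (0.09, -0.06 and 0.08).

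A different set of arrays was lowest on a pair of other probes. APP-PS1_UA replicate 4 and WT_WASHOUT replicates 4 and 5, all on slide 2, were the 3 lowest of 24 arrays on Opa1 A_52_P547795 (-2.56, -2.0 and -1.89) and on Nrf1 A_55_P2506320 (-1.83, -1.63 and -2.41). On Sirt3 (2.87, 2.42 and 2.36) and Esrra (2.54, 2.70 and 2.61) they were among the 4 lowest, with arrays of slide 1 between them. Over all arrays the slide-centred correlation was 0.82 between Esrra and this Opa1 probe and 0.66 between Esrra and Sirt3. Of the lead probes, the closest pair was Tfam with Mfn2 (0.72), and Tfam with Sirt1 had 0.54. For the 3 genes with a called lead probe, the genes most like them over 24 arrays, among 18530 compared, were Dr1 (0.90), Pbdc1 (0.88) and Scp2 (0.88) for Tfam. They were Rwdd4a (0.92), Mrpl44 (0.91) and Ndufb4 (0.91) for Dnm1l, and Zfp429 (0.91), Cnot6l (0.90) and Usp25 (0.89) for Sirt1.

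The wider machinery was described by 58 other genes in 6 lists, all measured. None of the 58 was called in APP-PS1_CTR against WT_CTR, in APP-PS1_UA against APP-PS1_CTR, in APP-PS1_UA against WT_CTR or in APP-PS1_UA-WASHOUT against APP-PS1_WASHOUT. The median change over the 58 genes lay between -0.04 and 0.07 in these comparisons, and the smallest adjusted p was 0.305, for the ATP synthase subunit Atp5b in APP-PS1_CTR against WT_CTR (0.43, SE 0.12). By size, the largest difference was that of the fission adaptor Inf2, an actin-nucleating formin, at 0.66 in APP-PS1_CTR against WT_CTR (adjusted p = 0.702) and -0.85 in APP-PS1_UA against APP-PS1_CTR (adjusted p = 0.578). The choroid plexus markers were also unevenly spread over these groups, at -2.56 to 3.62 in APP-PS1_UA, 1.28 to 3.00 in APP-PS1_CTR and -1.88 to 3.21 in WT_CTR, and their part in these values was not tested. All 11 mitochondrial content genes, such as the citrate synthase gene Cs and the outer membrane import receptor Tomm20, had a mean above WT_CTR in APP-PS1_UA, with a median of 0.13 against -0.03 for all probes. None passed the test (smallest adjusted p = 0.822), and 3 of the 4 APP-PS1_UA arrays were on another slide than WT_CTR. Without urolithin A, 9 of the 11 were also above WT_CTR in WT_WASHOUT on slide 2 (median 0.10, against -0.04 for all probes). In APP-PS1_UA against APP-PS1_CTR, 9 of 11 were higher, with a median of 0.03 against -0.01 for all probes.

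Against WT_WASHOUT, 10 of the 58 genes were lower and 3 higher in APP-PS1_UA-WASHOUT, and 4 were lower and 3 higher in APP-PS1_WASHOUT. Of all probes, 34.9% and 25.7% were called in these comparisons, and 13% and 7.21% were called lower. Higher calls were 9628 and 8131 of 43914 probes. These shares also apply to the counts by list that follow, and nothing particular to a list is read from those counts. Among nuclear partners, 1 of 9 was called in each: Yy1, a factor that recruits PGC-1α, was lower by a log2 change of -0.53 (adjusted p = 6.87e-05) in APP-PS1_UA-WASHOUT and -0.49 (adjusted p = 0.00107) in APP-PS1_WASHOUT. Among 7 genes of other sirtuins, NAD supply and energy sensing, Nampt, which makes the NAD precursor that sirtuins depend on, changed by -0.50 (adjusted p = 0.000953) and -0.46 (adjusted p = 0.00924). Prkaa1, a catalytic subunit of AMP-activated kinase, changed by -0.33 (adjusted p = 0.00172) in APP-PS1_UA-WASHOUT. The genes of both GABP subunits, Gabpa (-0.10, adjusted p = 0.75) and Gabpb1 (0.06, adjusted p = 0.703), were not called in APP-PS1_UA-WASHOUT.

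Fusion and inner membrane genes were 3 lower and 1 higher of 12 in APP-PS1_UA-WASHOUT and 2 lower of 12 in APP-PS1_WASHOUT. Yme1l1, a protease that cleaves OPA1, changed by -0.39 (adjusted p = 2.77e-05) and -0.28 (adjusted p = 0.00373). Phb2, a prohibitin of the inner membrane, changed by -0.40 (adjusted p = 0.000563) and -0.36 (adjusted p = 0.0067), and the OPA1 protease Oma1 by -0.32 (adjusted p = 0.0275) in APP-PS1_UA-WASHOUT. Stoml2, a stomatin-like protein of the inner membrane, was higher by 0.25 (adjusted p = 0.0177) in APP-PS1_UA-WASHOUT.

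Among 8 fission adaptors, 1 was called in each comparison: Mief2 lower in APP-PS1_UA-WASHOUT (-0.33, adjusted p = 0.0452) and Mief1 higher in APP-PS1_WASHOUT (0.34, adjusted p = 0.0345). Of 11 genes for mitochondrial DNA upkeep, the list nearest to Tfam in function, 1 was called in each, Top1mt, the mitochondrial topoisomerase, which was higher (0.35 and 0.43, adjusted p = 0.0472 and 0.0476). Of 11 mitochondrial content genes, 3 were lower in APP-PS1_UA-WASHOUT (Tomm20, Idh3a and cytochrome c, Cycs, between -0.29 and -0.22), and the succinate dehydrogenase subunit Sdhb was higher in both (0.16 and 0.29, adjusted p = 0.0389 and 0.00388). The lists thus held calls in both directions. In the interaction of transgene and stage, Yy1 (-0.53, adjusted p = 0.0171) and Nampt (-0.55, adjusted p = 0.0466) were called, 2 of 58 where 13% of all probes were.

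**Figure D4:**
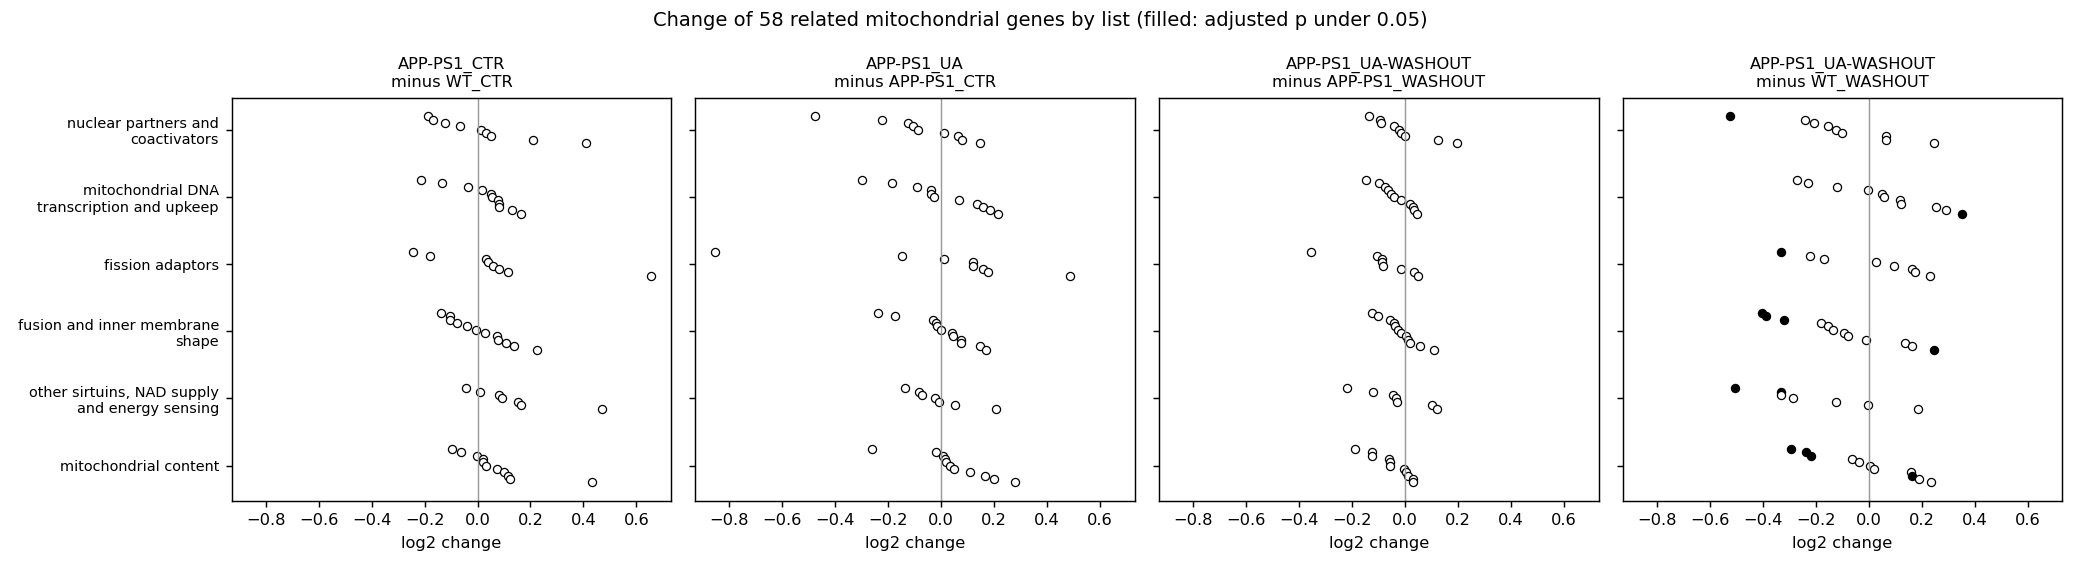
Log2 change (x axis) of the 58 related genes, one point per gene, in 6 lists down the page and 4 comparisons across, filled where adjusted p was under 0.05. The points of the first 3 comparisons are all open, and the fourth, APP-PS1_UA-WASHOUT minus WT_WASHOUT, has 10 filled points below 0 and 3 above it.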

How the data were processed

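Hippocampal RNA of 24 mice was hybridised to Agilent one-colour arrays. Spot intensity values come from scanner files the authors deposited, for which the file headers name Feature Extraction 12.0.3.1. The processed signal used is an intensity after the software's background subtraction and without scaling across arrays. In the series matrix the authors deposited a score, which tests on the files showed to be each array's log signal standardized to its own mean and SD, within 0.005. Its log base is unknown, its column medians were -0.17 to -0.06, and a higher score is a higher signal.

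Flagged spots were left out (1056 values of kept probes). Log2 values of repeated spots were averaged, and the array's 75th percentile was then subtracted, with no pseudocount. Probes well above background on at least 3 arrays, with 2 or more unflagged values per group, were kept (43914). Of 62976 spots, 3671 were controls. RefSeq symbols named 32994 of 56605 probes.

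A model of 6 group means over 24 arrays was fitted to all kept probes in limma 3.58.1 (R 4.3.3), with 9 contrasts and Benjamini-Hochberg adjustment across probes, and was tested on simulated data. Tables and plots used Python 3.11.15, pandas 2.3.3, numpy 2.4.6 and matplotlib 3.10.9. Named genes are the 10 members with every probe, called genes of 6 pathway lists (at most 4 a list, by smallest adjusted p, or the largest change where none was called) and the 3 genes most like each called member. Atp5b, Cs, Gabpa and Gabpb1 were added after their values were seen. Members, lists and tests were chosen with earlier results of these data known. The number of arrays limits precision. Alternatives were array-median, quantile and normexp scaling, the deposited score, filters on dim probes, slide and replicate blocks, array weights, and leaving out arrays. The planned normexp correction on mean signals was run on median signals, since the files used hold no mean signal.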

Additional observations from a re-analysis of the deposited data

Results flagged for a closer look

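In 72 sets of values (a probe in a group of 4 or 5 animals), 3 held an animal whose gap to the others passed Dixon's 95% critical value, against 3.6 that chance would give at 1 in 20. Esrra A_55_P1954306 in APP-PS1_UA had replicate 4 at 2.54, with the other 3 animals between 2.91 and 2.96. Opa1 A_52_P547795 in APP-PS1_UA had the same replicate at -2.56, with the others between -1.22 and -1.12. Mfn1 A_55_P2609846 in APP-PS1_UA had replicate 3 at -3.96, with the others between -4.28 and -4.27.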

How the results depend on the processing

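No member probe was called for APP-PS1_CTR minus WT_CTR, APP-PS1_UA minus APP-PS1_CTR, APP-PS1_UA minus WT_CTR, APP-PS1_UA-WASHOUT minus APP-PS1_WASHOUT, WT_WASHOUT minus WT_CTR or the urolithin A interaction under any alternative run. No called member probe changed sign under any alternative run; some uncalled changes did, such as the Ppargc1a lead probe (-0.12 for APP-PS1_UA minus APP-PS1_CTR with slide as a fixed block). Leaving out 1 array at a time gave 4 member calls for APP-PS1_UA-WASHOUT minus WT_WASHOUT (6 with array medians, adding Mfn2 and Nrf1; 5 with quantile normalization, adding Mfn1; 6 with the deposited scores, adding Mfn1 and a pair of Nrf1 probes and losing Dnm1l), 0 to 3 for APP-PS1_WASHOUT minus WT_WASHOUT and 0 to 2 for the transgene interaction. Slide as a fixed block could not be fitted for comparisons that lie wholly between slides. Normexp on mean signals was not run. Normexp on median signals and the removal of 4 slide 3 arrays were chosen after seeing the data. Signal limited the second Sirt1 probe, which was well above background on 23 of 24 arrays. The Esrra probe also counted on 23, because 1 array was set aside for an outlier flag. The causes of the differences that follow were not tested.

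For APP-PS1_WASHOUT minus WT_WASHOUT, member calls were 1 with normexp (Sirt1, adjusted p = 0.0362, both Tfam probes losing theirs), 1 with no filter on dim probes (the second Tfam probe), 1 with 1 probe per gene (Tfam, whose second probe was then not fitted), 4 with the deposited scores, and 0 when only those groups were fitted. All calls there were 6656 with normexp and 7430 over probes above background on all arrays. Its higher calls were 72.0% of all calls, and 57.0% with array medians, 44.2% with quantile normalization and 38.1% with the deposited scores. For APP-PS1_UA-WASHOUT minus WT_WASHOUT, all calls were 23421 with the deposited scores, 25427 with no filter, and 5554 (0 of members) without the 4 arrays of slide 3 in row 2. Its higher calls were 62.7%, and 45.3% with array medians, 35.4% with quantile normalization and 28.3% with the deposited scores. The transgene interaction had 82.0% higher calls, and 67.8%, 55.9% and 47.7% under the same settings. It had 2 member calls (Tfam A_55_P2026445 and Sirt1 A_55_P2030428) with array weights and with the deposited scores, and all its calls were 9154 with array weights, 2118 with normexp and 3362 over probes above background on all arrays.

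Calls among all probes moved as follows. APP-PS1_CTR minus WT_CTR had 196 with array weights, 37 with no filter and with slide as a fixed block, 4 with slide and array row, and 30 within slide 1 and when only its groups were fitted. APP-PS1_UA minus APP-PS1_CTR had 9 with array weights and 10 with slide, or slide and array row, as fixed blocks. APP-PS1_UA-WASHOUT minus APP-PS1_WASHOUT had 43 with array weights, 758 with the deposited scores, 3269 with no filter, 4 with normexp and over probes above background on all arrays, 174 with quantile normalization, 82 with slide and array row, 0 within slide 3 and when only its groups were fitted, and 188 without the 4 slide 3 arrays. APP-PS1_UA minus WT_CTR had 29 with array medians, 34 with slide as a random block, 5 with slide and array row, 0 within slide 1 and 4 when only its groups were fitted. WT_WASHOUT minus WT_CTR had 8 with array weights, 1 with the deposited scores, 2 with quantile normalization and with slide as a fixed block, 85 with slide as a random block, and 0 with slide and array row and when only its groups were fitted. The urolithin A interaction had 91 with array weights, 312 with the deposited scores, 5 with array medians, 7 with no filter, 73 with quantile normalization and 121 without the 4 slide 3 arrays. Leaving out 1 array at a time gave 26 to 43 calls for APP-PS1_CTR minus WT_CTR, 0 to 3 for APP-PS1_UA minus APP-PS1_CTR, 9 to 22 for APP-PS1_UA minus WT_CTR, 7 to 89 for APP-PS1_UA-WASHOUT minus APP-PS1_WASHOUT, 13772 to 15657 for APP-PS1_UA-WASHOUT minus WT_WASHOUT, 8089 to 11739 for APP-PS1_WASHOUT minus WT_WASHOUT, 0 to 18 for WT_WASHOUT minus WT_CTR, 4336 to 6941 for the transgene interaction and 0 to 26 for the urolithin A interaction.

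Samples with the same replicate number had a median r of 0.015 over 52 pairs, against 0.007 over 186 pairs with different numbers. Of 24 arrays, 9 correlated best with their own number. These values gave no clear sign that the numbers pair the animals, and they cannot exclude it. With a replicate block, calls were 41 for APP-PS1_CTR minus WT_CTR, 9 for APP-PS1_UA-WASHOUT minus APP-PS1_WASHOUT and 0 for WT_WASHOUT minus WT_CTR. Member calls for APP-PS1_WASHOUT minus WT_WASHOUT were then 1, Tfam A_55_P2026445.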
